A study of Mus musculus with 59 samples.

Results

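The 40 genes described here make up the machinery of the cell division cycle, and they were followed through RNA sequencing of microglia, the macrophages that live in the brain, grown as primary cultures from mice. They were picked by gene symbol from a list organised by function, and every symbol was found once in each of the deposited tables, which hold 32070 genes. Of the 40, 15 act in DNA replication, 17 in mitosis and 5 are D cyclins and their kinases, while 3 are inhibitors of cyclin-dependent kinases (CDKs). All 40 passed the filter on low values, which asked for a level of 1 TPM or more in 4 or more libraries, in both tables. TPM is each transcript's share of its library, corrected for length and set to a common total.

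A resting cell that receives a growth signal makes D cyclins, which activate Cdk4 and Cdk6 and so free the E2F factors from the retinoblastoma proteins. E2F factors switch on the genes that license origins, copy DNA and make nucleotides, and the genes of mitosis follow later in the cycle through the MuvB complex with B-Myb and FoxM1. The inhibitors p21 (Cdkn1a), p27 (Cdkn1b) and p18 (Cdkn2c) hold the kinases back. Microglia of newborn animals divide readily in culture, and bacterial lipopolysaccharide is known to slow the division of macrophages.

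Cultures were made from P0/P1 pups of 3 genotypes. KO cultures were Tbk1fl/fl with Cx3CR1-Cre, HET cultures were Tbk1fl/+ with the same Cre, and WT cultures were Tbk1fl/fl without it. All groups thus carried a floxed Tbk1 allele, and KO against WT contains the effect of Cre while KO against HET does not. The Cre is driven by the fractalkine receptor gene, which microglia and other macrophages use. After 16 h of plating the cells received fresh medium with lipopolysaccharide (LPS, 100 ng/mL), with interleukin-4 (IL4, 20 ng/mL), with poly(I:C) (pIC, which mimics viral double-stranded RNA and whose dose the labels leave out), or with no stimulus (UT), for 24 h. Replicates were 5 independent cultures per group, 59 libraries in 12 groups, and untreated WT has 4 because its replicate 5 was not analysed here. Values of single libraries are listed by replicate number.

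Promoter sequence of a few members shows the elements by which these genes are usually grouped. Each stretch is from RefSeq (GRCm38.p6), written 5′ to 3′ along the gene's strand and lying within the 250 bases before the annotated start. Capitals mark exact matches, on either strand, to the CCAAT box (CCAAT or ATTGG), to the cell cycle homology region CHR (TTTGAA or TTCAAA), or to E2F letters (TTTGGCGC, TTTCGCGC, TTTCCCGC, TTTGGCGG or their complements), and overlapping matches run together. The mitosis genes Ccnb2 (cyclin B2), Aurka (Aurora A kinase), Cdk1 (the mitotic kinase) and Mki67 (the proliferation marker Ki-67) are shown for their repeated CCAAT boxes, and Mcm5, Mcm6 and Mcm3, subunits of the replicative helicase, for the contrast between promoters that hold E2F letters and one that does not.
Ccnb2, chr9:70421555-70421654, minus strand: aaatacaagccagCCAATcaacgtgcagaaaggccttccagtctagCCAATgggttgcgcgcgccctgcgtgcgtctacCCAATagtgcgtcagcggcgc
Aurka, chr2:172370571-172370670, minus strand: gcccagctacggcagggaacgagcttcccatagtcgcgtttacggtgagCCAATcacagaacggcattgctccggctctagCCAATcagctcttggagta
Cdk1, chr10:69352939-69353052, minus strand: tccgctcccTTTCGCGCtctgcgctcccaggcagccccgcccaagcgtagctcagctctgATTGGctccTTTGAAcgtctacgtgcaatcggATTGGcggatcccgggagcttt
Mki67, chr7:135716469-135716579, minus strand: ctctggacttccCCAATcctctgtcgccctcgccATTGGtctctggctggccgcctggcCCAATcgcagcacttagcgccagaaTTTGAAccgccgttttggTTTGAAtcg
Mcm5, chr8:75109349-75109494, plus strand: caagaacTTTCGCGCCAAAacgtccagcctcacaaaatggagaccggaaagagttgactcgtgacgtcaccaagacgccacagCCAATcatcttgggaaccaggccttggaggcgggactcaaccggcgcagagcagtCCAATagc
Mcm6, chr1:128359706-128359825, minus strand: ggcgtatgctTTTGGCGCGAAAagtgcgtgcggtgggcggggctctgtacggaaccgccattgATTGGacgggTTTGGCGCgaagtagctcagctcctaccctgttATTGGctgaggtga
Mcm3, chr1:20820332-20820442, minus strand: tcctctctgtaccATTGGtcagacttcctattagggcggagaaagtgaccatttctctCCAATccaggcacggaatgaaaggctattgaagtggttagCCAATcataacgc
Of the 40 members, 33 had a promoter in the RefSeq table. At least 1 CCAAT box stood in 14 of 15 mitosis genes and 8 of 12 replication genes, against 37.5% of the 27025 genes of the table, and at least 2 stood in 11 of 15 and 5 of 12, against 11.5%. The CHR letters stood in 6 of 15 mitosis genes and 1 of 12 replication genes, against 18.3%. The E2F letters stood in 3 of 12 replication genes and 1 of 15 mitosis genes, against 2.26%. Neither the 3 G1 genes nor the 3 CDK inhibitors with a promoter in the table held CHR or E2F letters. These are matches of letters, not measured binding.

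The labels could be checked against Tbk1, the kinase gene that was targeted, which averaged 19.9 ± 4.74 TPM in KO, 34.9 ± 1.67 TPM in HET and 47.5 ± 4.17 TPM in WT among untreated cultures. It averaged 18.0 ± 5.14 TPM in KO, 60.5 ± 4.08 TPM in HET and 90.9 ± 8.37 TPM in WT with LPS, 15.6 ± 4.89 TPM in KO, 31.0 ± 2.53 TPM in HET and 44.0 ± 1.69 TPM in WT with IL4 and 23.8 ± 4.64 TPM in KO, 53.9 ± 6.04 TPM in HET and 82.5 ± 6.17 TPM in WT with pIC (SD, n = 5, or 4 for untreated WT). The order of the genotypes matched the labels in each treatment. The 10 microglia markers summed to between 2175 and 11059 TPM per library. Of other cells, the 7 markers of oligodendrocyte progenitors, which also divide in young brain, summed to 348 ± 143, 292 ± 104 and 322 ± 186 TPM with LPS in KO, HET and WT, against 1057 ± 372, 1032 ± 232 and 1419.9 ± 371 TPM untreated. Vascular and stromal markers summed to at most 53.8 TPM, with the pericyte gene Rgs5 below 0.3 TPM in all libraries. Markers of border macrophages and monocytes summed to 1209 ± 253, 704 ± 205 and 518 ± 34.2 TPM with LPS in KO, HET and WT, against 406 ± 64.6, 435 ± 74.3 and 396 ± 65.5 TPM untreated. Cd163 was below 0.4 TPM in all libraries, so these sums came from other markers of the list. Depth is unknown because TPM keeps none, and in RNA of whole cultures fewer dividing cells and less of each transcript per cell cannot be told apart.

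In untreated cultures the genotypes overlapped in the summed level of the division genes. The replication genes summed to 498 ± 77.2 TPM in KO, 521 ± 130.2 in HET and 516 ± 82.4 in WT, and the mitosis genes to 276 ± 49.5, 283 ± 90.7 and 287 ± 64.8 TPM. In limma's test, which compared log2(TPM + 1) and adjusted p over all genes by the Benjamini-Hochberg method with a threshold of 0.05, 0 members differed for KO against WT (background 0.0314% of genes called), for KO against HET (0.00629%) or for HET against WT (0.0126%), and 0 reached an unadjusted p under 0.05. The 40 log2 differences ran from -0.48 to 0.35 for KO against WT and from -0.18 to 0.49 for KO against HET.

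The untreated libraries instead differed from culture to culture. Of the 32 replication and mitosis genes, 29 were highest in replicate 5 among HET cultures, 27 were lowest in replicate 4 among KO cultures, and 23 were lowest in replicate 3 among HET cultures. In these cases most of the 32 genes shared the replicate of their highest or lowest value. The highest values in KO were instead split, 10, 9, 3, 0 and 10 genes over replicates 1 to 5. The summed mitosis genes of HET ran from 189 to 414 TPM. Replicate 5 of HET also had the lowest summed oligodendrocyte progenitor markers of its group, 662 TPM, against 1006 to 1292 TPM in the other HET cultures. The part of that difference in cell composition was not tested.

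**Figure D1:**
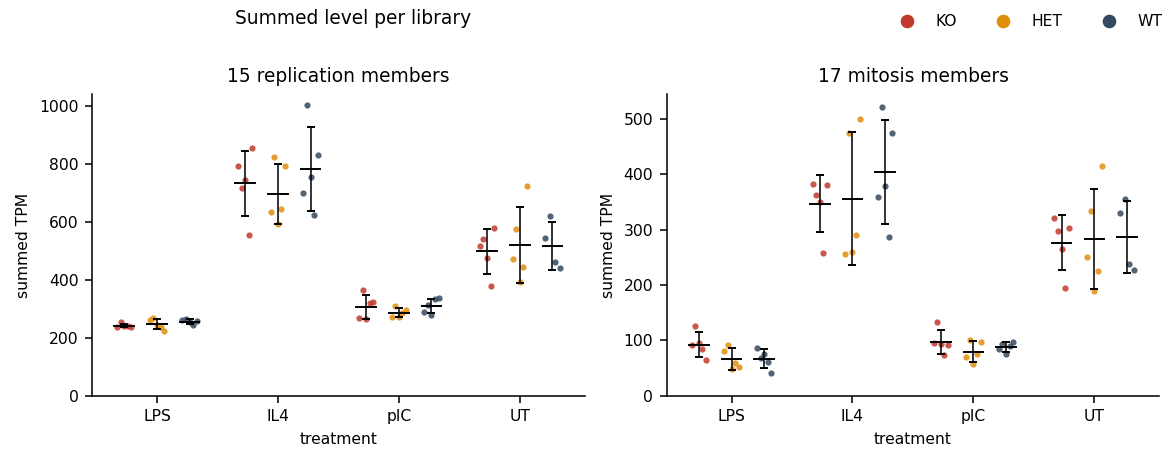
Summed TPM of the 15 replication and 17 mitosis members in each library, by treatment and genotype, with points for libraries, lines for means and bars for SD. Both sums are lower on average with LPS and pIC than untreated in every genotype, and higher on average with IL4.

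The D cyclins and the inhibitors set the entry into the cycle, and their untreated levels were as follows. Ccnd1 (cyclin D1) read 94.1, 98.0, 60.0, 49.5 and 116 TPM in KO, 70.4, 95.6, 50.7, 61.3 and 134 TPM in HET, and 90.1, 98.3, 59.3 and 56.0 TPM in WT. Ccnd2 (cyclin D2) read 15.0, 18.7, 14.5, 44.9 and 17.6 TPM in KO, 19.0, 15.3, 40.3, 16.3 and 8.20 TPM in HET, and 20.6, 17.6, 18.9 and 15.7 TPM in WT. Ccnd3 (cyclin D3) read 79.9, 79.3, 97.5, 59.9 and 44.4 TPM in KO, 100.1, 82.2, 80.6, 73.1 and 60.7 TPM in HET, and 114, 71.5, 99.3 and 103 TPM in WT. The genotypes overlapped in all of these, and replicate 4 of KO and replicate 3 of HET stood apart with more than 40 TPM of Ccnd2, against at most 20.6 TPM in every other untreated library. The same cultures had the lowest Ccnd1 of their genotype.

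Among the inhibitors, Cdkn1a read 135, 113, 107, 119.7 and 155 TPM in KO, 110.0, 112, 129, 119.5 and 145 TPM in HET, and 95.6, 115, 99.1 and 116 TPM in WT. Cdkn1b read 56.7, 58.4, 65.3, 69.4 and 50.4 TPM in KO, 71.9, 54.7, 75.9, 58.8 and 45.0 TPM in HET, and 68.1, 51.9, 64.0 and 69.1 TPM in WT. Cdkn2c read 28.2, 29.7, 25.6, 27.4 and 28.0 TPM in KO, 26.1, 32.8, 28.5, 25.4 and 32.3 TPM in HET, and 27.7, 27.7, 24.9 and 25.4 TPM in WT. These ranges overlapped as well, and p21 was the most abundant of the 3 transcripts in every untreated library on the length-scaled TPM level.

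LPS turned most of the programme down in every genotype. All 17 mitosis genes fell in HET and WT and 16 of 17 in KO, with median log2 differences of -1.43 in KO, -1.70 in HET and -1.90 in WT. Of the 15 replication genes 13 fell in KO and 12 in HET and in WT, whereas Tyms rose in KO and HET and E2f1 in KO. Of the inhibitors, Cdkn1a rose while Cdkn1b and Cdkn2c fell in all 3 genotypes. Counted over all 40 members, 3 rose and 35 fell in KO, 2 and 35 in HET, and 1 and 35 in WT.

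These counts stand against a wide background, since LPS called 56.5% of all genes lower and 13.1% higher in KO, 59.7% and 14.3% in HET, and 61.9% and 13.9% in WT. The median log2 difference over the members was -1.40, -1.61 and -1.55 in KO, HET and WT, and over all genes tested -0.44, -0.51 and -0.59. Median-of-ratios scaling, which brings the typical gene near no change, left 33, 29 and 29 members lower and 4, 3 and 4 higher in KO, HET and WT, and it split the calls over all genes into 4711 higher and 4585 lower in KO, 5184 and 5131 in HET, and 5062 and 5065 in WT, where the TPM as deposited gave 2085 and 8993, 2275 and 9497, and 2210 and 9854. All 7 markers of oligodendrocyte progenitors, 6 of 8 of neurons, and 7 (KO) or 8 (HET, WT) of the 10 of microglia also fell with LPS, and their part in the fall of the members was not tested.

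**Figure D2:**
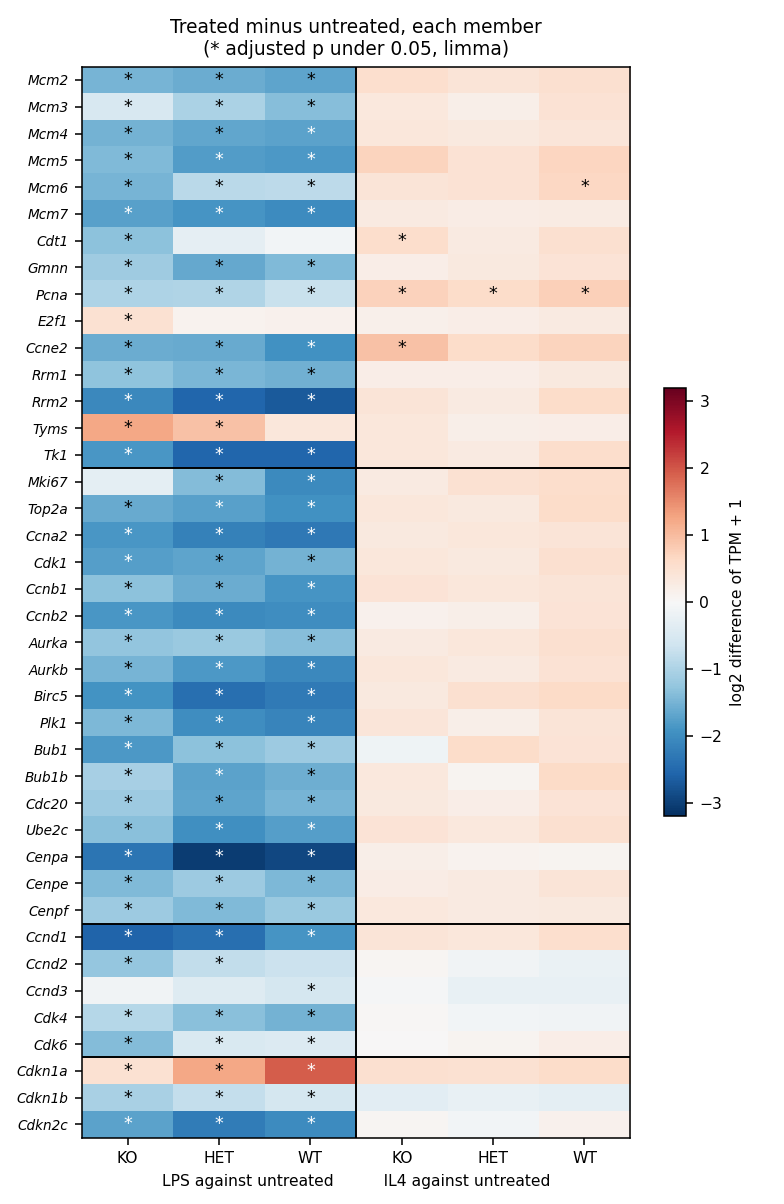
Log2 differences of log2(TPM + 1) for each of the 40 members (rows, by role), for LPS and IL4 against UT in KO, HET and WT (columns), with stars for adjusted p under 0.05 by limma. Mitosis and most replication genes are lower with LPS in all columns, Tyms and Cdkn1a are the main exceptions, and the IL4 columns are mostly weakly positive.

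Among the replication genes the nucleotide-supply enzymes went in opposite directions. Rrm2, the small subunit of ribonucleotide reductase, read 4.99, 5.09, 4.20, 2.90 and 2.29 TPM in KO, 3.60, 4.18, 1.71, 1.77 and 1.26 TPM in HET, and 4.68, 3.21, 2.31, 1.31 and 0.883 TPM in WT with LPS. Untreated, Rrm2 read 22.6, 23.2, 18.6, 12.5 and 20.1 TPM in KO, 14.1, 23.1, 15.1, 14.2 and 29.9 TPM in HET, and 26.0, 24.8, 16.9 and 13.7 TPM in WT. Every LPS library lay below every untreated one, and Rrm2 fell, at log2 differences of -2.07 ± 0.27 in KO, -2.55 ± 0.27 in HET and -2.68 ± 0.29 in WT (largest adjusted p = 1.78e-08). Tyms, the thymidylate synthase that makes dTMP, read 18.8, 20.6, 23.0, 27.9 and 28.4 TPM in KO, 24.2, 17.7, 29.5, 29.2 and 10.4 TPM in HET, and 17.8, 16.0, 27.0, 15.9 and 14.0 TPM in WT with LPS. Untreated, Tyms read 12.1, 9.85, 7.04, 8.49 and 10.0 TPM in KO, 9.40, 11.6, 8.19, 8.31 and 15.4 TPM in HET, and 14.5, 13.5, 11.3 and 15.0 TPM in WT. The KO ranges of Tyms did not overlap, those of HET and WT did, and the log2 difference was 1.24 ± 0.23, adjusted p = 1.00e-05 in KO, 0.95 ± 0.23, adjusted p = 3.03e-04 in HET, and 0.37 ± 0.24, adjusted p = 0.164 in WT. The WT difference of Tyms passed under median-of-ratios scaling and under quantile normalization.

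Tk1, the thymidine kinase of the salvage route, was among the largest falls, -1.87 ± 0.30 in KO, -2.54 ± 0.30 in HET and -2.53 ± 0.32 in WT. Thus the transcript of de novo dTMP synthesis was higher with LPS in KO and HET cultures while that of salvage was lower. The 6 Mcm helicase genes fell in all 3 genotypes, at log2 differences of -0.84 (Mcm6) to -2.02 (Mcm7) in WT and -0.50 (Mcm3) to -1.75 (Mcm7) in KO, although the fall of Mcm3 in KO was absent under median-of-ratios scaling (0.01, adjusted p = 0.986). E2f1, the activating E2F factor, read 15.4, 18.8, 15.2, 15.6 and 19.1 TPM in KO, 10.5, 14.2, 9.58, 15.6 and 12.8 TPM in HET, and 10.9, 14.9, 8.90, 14.3 and 12.2 TPM in WT with LPS. Untreated, E2f1 read 13.5, 13.1, 10.5, 7.74 and 14.2 TPM in KO, 10.4, 12.2, 8.50, 10.5 and 16.8 TPM in HET, and 11.8, 14.1, 8.72 and 9.64 TPM in WT. It rose in KO (0.50 ± 0.18, adjusted p = 0.0121), where every LPS library exceeded every untreated one, and the differences of 0.11 ± 0.18 in HET and 0.14 ± 0.19 in WT did not pass, with overlapping libraries. Without untreated KO replicate 4 the KO difference of E2f1 had an adjusted p of 0.067, and the rise passed in all 3 genotypes under quantile normalization and under median-of-ratios scaling.

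Among the mitosis genes Cenpa, the histone variant that marks centromeres, fell most. With LPS it read 5.41, 9.21, 5.03, 3.57 and 3.41 TPM in KO, 6.40, 3.90, 1.28, 2.05 and 1.60 TPM in HET, and 6.03, 3.82, 4.62, 2.37 and 1.56 TPM in WT. Untreated, Cenpa read 38.1, 30.3, 27.7, 27.7 and 25.7 TPM in KO, 28.9, 28.4, 24.1, 30.9 and 33.4 TPM in HET, and 32.9, 34.6, 28.1 and 32.7 TPM in WT. No LPS library came near the untreated ones, and the log2 difference was -2.34 ± 0.23 in KO, -3.03 ± 0.23 in HET and -2.91 ± 0.25 in WT. Ccna2, cyclin A2 of S and G2 phase, read 4.55, 6.54, 5.42, 2.63 and 2.07 TPM in KO, 3.70, 4.79, 2.08, 2.30 and 2.37 TPM in HET, and 4.20, 3.46, 3.32, 2.48 and 1.18 TPM in WT with LPS. Untreated, Ccna2 read 20.1, 18.5, 16.2, 10.8 and 22.2 TPM in KO, 13.9, 21.7, 10.6, 12.4 and 30.6 TPM in HET, and 22.2, 21.5, 14.3 and 12.9 TPM in WT. Again all LPS libraries lay below all untreated ones, at log2 differences of -1.87 ± 0.28 in KO, -2.16 ± 0.28 in HET and -2.28 ± 0.29 in WT. Birc5 (survivin), Ccnb2 and Ube2c (the ubiquitin-conjugating enzyme of the anaphase-promoting complex) fell, at log2 differences of -1.90, -1.85 and -1.35 in KO, -2.42, -2.03 and -1.96 in HET, and -2.27, -2.00 and -1.77 in WT.

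Of the D cyclins, Ccnd1 fell furthest with LPS. It read 17.4, 18.3, 19.1, 7.10 and 6.94 TPM in KO, 16.2, 19.7, 7.44, 11.6 and 17.9 TPM in HET, and 34.1, 16.9, 15.1, 15.5 and 18.9 TPM in WT, and every LPS library lay below every untreated one, at log2 differences of -2.57 ± 0.29 in KO, -2.41 ± 0.29 in HET and -1.89 ± 0.31 in WT. Ccnd2 read 8.11, 9.01, 7.29, 8.55 and 7.20 TPM in KO, 9.46, 14.1, 9.64, 6.53 and 9.88 TPM in HET, and 13.4, 12.9, 10.6, 9.00 and 9.43 TPM in WT with LPS. It fell in KO (-1.23 ± 0.30, adjusted p = 4.48e-04) and HET (-0.79 ± 0.30, adjusted p = 0.017) and missed the threshold in WT (-0.68 ± 0.32, adjusted p = 0.05), and the HET call was lost without untreated HET replicate 3 or LPS HET replicate 4. Ccnd3 read 88.1, 84.3, 73.3, 44.1 and 48.2 TPM in KO, 58.2, 69.0, 51.5, 56.0 and 57.5 TPM in HET, and 73.3, 64.2, 65.5, 74.0 and 49.6 TPM in WT with LPS. Its fall passed in WT (-0.56 ± 0.23, adjusted p = 0.0263) but not in HET (-0.42 ± 0.21, adjusted p = 0.0732) or KO (-0.10 ± 0.21, adjusted p = 0.69), and median-of-ratios scaling turned it round in WT (0.12, adjusted p = 0.594) and KO (0.42, adjusted p = 0.0332). The difference of the Ccnd3 response, KO minus WT, was 0.46 ± 0.31, adjusted p = 0.376. Cdk4, the partner kinase of the D cyclins, fell in all 3 genotypes, at log2 differences of -0.92 ± 0.16, -1.33 ± 0.16 and -1.50 ± 0.17 in KO, HET and WT.

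The CDK inhibitors did not move together. Cdkn1a, which encodes p21, read 176, 147, 160.5, 164 and 243 TPM in KO, 266, 385, 214, 173 and 541 TPM in HET, and 292, 514, 427, 300.4 and 598 TPM in WT with LPS. LPS libraries of HET and WT all exceeded the untreated ones of the same genotype, while those of KO overlapped them, and Cdkn1a rose by 0.48 ± 0.20 in KO (adjusted p = 0.0305), 1.24 ± 0.20 in HET (adjusted p = 9.98e-07) and 1.94 ± 0.21 in WT (adjusted p = 2.40e-10). The KO call of Cdkn1a was lost without LPS KO replicate 5 and without untreated KO replicate 2, 3 or 4, with adjusted p up to 0.116. Cdkn1b, which encodes p27, read 29.4, 32.8, 36.6, 26.6 and 20.4 TPM in KO, 33.5, 41.1, 27.6, 32.6 and 43.6 TPM in HET, and 43.5, 47.0, 45.5, 39.7 and 38.1 TPM in WT with LPS. It fell, at log2 differences of -1.03 ± 0.15 in KO, -0.76 ± 0.15 in HET and -0.55 ± 0.16 in WT, with no overlap within a genotype, although the WT value was 0.12 (adjusted p = 0.435) under median-of-ratios scaling. Cdkn2c, which encodes the Cdk4 and Cdk6 inhibitor p18, read 8.55, 10.0, 8.42, 8.31 and 4.83 TPM in KO, 8.29, 6.67, 5.04, 5.26 and 2.82 TPM in HET, and 8.54, 4.60, 6.33, 4.93 and 5.21 TPM in WT with LPS. It fell, at log2 differences of -1.70 ± 0.16 in KO, -2.23 ± 0.16 in HET and -2.01 ± 0.17 in WT, also with no overlap, so that p18 fell along with the mitosis genes while p21 rose.

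**Figure D3:**
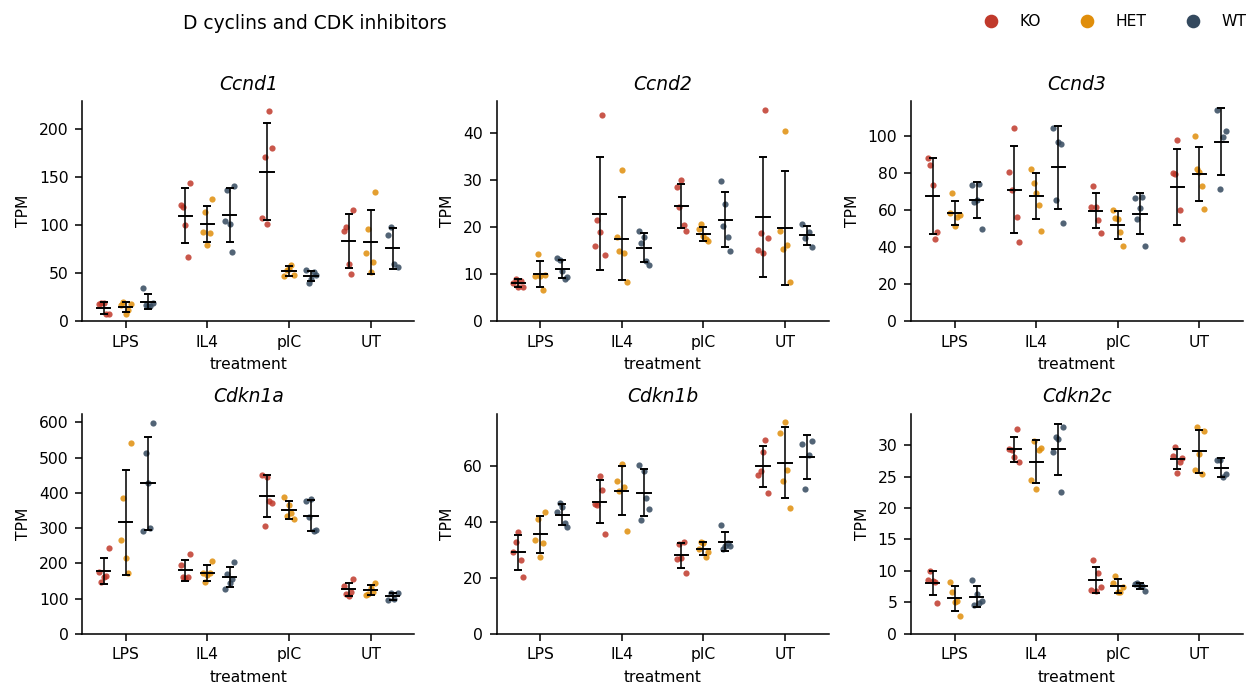
TPM of the D cyclins and the CDK inhibitors in every library, by treatment and genotype, with points for libraries, lines for means and bars for SD. Cdkn1a is highest with LPS in WT (292 to 598 TPM), Ccnd1 is low with LPS in all genotypes (6.94 to 34.1 TPM), and with pIC the KO libraries of Ccnd1 (101 to 219 TPM) lie above those of HET and WT.

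Most other genes of replication and mitosis, outside the 40, fell with LPS as well, where 56.5% of all genes were called lower in KO, 59.7% in HET and 61.9% in WT, and 13.1%, 14.3% and 13.9% higher. Of 38 other replication genes 35 fell and 0 rose in each genotype. Of 38 other mitosis genes 35 fell in KO and HET and 34 in WT, and those that rose were Pttg1 (securin, which restrains separase) in all 3 genotypes, Cks2 (a CDK-binding subunit) in HET and WT, and Incenp (of the chromosomal passenger complex) in KO and HET. Pttg1 averaged 45.7 ± 12.5 TPM in KO, 80.8 ± 15.2 TPM in HET and 84.8 ± 8.03 TPM in WT with LPS, against 28.0 ± 1.38 TPM in KO, 28.3 ± 2.76 TPM in HET and 26.9 ± 1.17 TPM in WT untreated. Of 12 genes of the RB and DREAM complexes and other inhibitors, 2 rose and 7 fell in KO, and 1 rose and 6 fell in HET and in WT, where Cdkn1c (p57) and Cdkn2a fell, at log2 differences of -2.07 and -1.76. The shares of these 12 that fell lie near the background. Of 13 targets of p53 and antiproliferative genes, 3 rose and 8 fell in KO and 5 and 7 in HET and in WT, with Gadd45b (a stress-induced growth arrest gene) at 3.43 and Sesn1 (sestrin 1) at -4.28 in WT. The shares that fell among these 13 lie near the background too. Of the 6 mitogens and receptors tested, 4 rose and 2 fell in KO, and 3 and 2 in HET and in WT. Those that rose in KO were the growth factor genes Csf1 and Csf2 and the receptor genes Csf2ra and Csf2rb. The 2 that fell were Csf1r, the receptor of the main microglial growth factor, and Myc. Csf1r fell at log2 differences of -0.48, -1.26 and -1.40 in KO, HET and WT, and Myc at -1.57, -1.48 and -1.88.

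Under LPS, KO cultures differed from the others in a small set of members that spans all roles. Against WT, Mki67 and Mcm3 were higher in KO, and Cdt1, Cdkn1a, Cdk6, Mcm6 and Cdkn1b were lower. Against HET, Mki67, Cenpa and Cdkn2c were higher and Cdt1, Cdk6, Cdkn1a and Mcm6 lower. The share of members called was 7 of 40 in each comparison, beside 27.6% and 24% of all genes, so it did not exceed the background. Members higher in KO than HET numbered 0 without LPS HET replicate 5, 1 without LPS KO replicate 2 and 6 without LPS KO replicate 5, and 6 exceeded WT without LPS WT replicate 1 and 4 without LPS KO replicate 5. For HET against WT 0 members were called by limma (background 0.0126%), and 2 had an unadjusted p under 0.05.

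Mki67 encodes Ki-67, the nuclear protein that marks cycling cells. With LPS it read 4.74, 18.1, 14.3, 29.5 and 20.7 TPM in KO, 6.27, 8.22, 7.49, 9.69 and 3.32 TPM in HET, and 4.49, 4.85, 3.98, 4.99 and 3.17 TPM in WT. Untreated, Mki67 read 21.8, 24.4, 16.9, 12.1 and 24.0 TPM in KO, 14.0, 28.0, 13.9, 16.2 and 28.5 TPM in HET, and 21.1, 31.0, 16.1 and 16.7 TPM in WT. KO libraries 2 to 5 exceeded all HET and WT libraries with LPS, and KO replicate 1 fell within the WT range. KO exceeded WT by 1.62 ± 0.32, adjusted p = 1.00e-04, and HET by 1.08 ± 0.32, adjusted p = 0.00991. The call against HET was lost without LPS KO replicate 4 or without LPS HET replicate 5 (adjusted p up to 0.0542). In KO the difference of Mki67 between LPS and UT, -0.32 ± 0.32, did not pass (adjusted p = 0.37), against -1.40 ± 0.32 in HET and -2.03 ± 0.34 in WT. The difference of those responses passed for KO minus WT (1.71 ± 0.47, adjusted p = 0.00762) and not for KO minus HET (1.07 ± 0.45, adjusted p = 0.12). Mki67 was the only 1 of the 17 mitosis genes called for KO against WT, where 14.4% of all genes were called higher and 13.2% lower. The median over these 17, Mki67 included, was 0.32 beside 0.01 over all genes. Against HET, Cenpa was called higher as well. Top2a, topoisomerase II of mitotic chromosomes, differed from WT by 0.32 ± 0.24, adjusted p = 0.377.

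Cdt1, which loads the Mcm helicase onto origins, showed the reverse. It read 9.30, 6.50, 10.7, 5.79 and 5.72 TPM in KO, 22.0, 21.1, 18.5, 16.0 and 14.8 TPM in HET, and 18.9, 20.3, 20.1, 19.8 and 17.4 TPM in WT with LPS. Untreated, Cdt1 read 21.1, 20.8, 15.8, 17.4 and 24.4 TPM in KO, 21.3, 24.2, 17.4, 22.3 and 28.4 TPM in HET, and 17.8, 29.0, 15.4 and 22.3 TPM in WT. All KO libraries with LPS lay below all HET and WT libraries with LPS and below all untreated KO libraries, whereas HET and WT values with LPS overlapped the untreated ones. KO was lower than WT, at a log2 difference of -1.27 ± 0.16, adjusted p = 6.12e-08, and lower than HET, at -1.20 ± 0.16, adjusted p = 2.85e-07. With LPS against UT, Cdt1 fell in KO (-1.30 ± 0.16, adjusted p = 9.21e-09) and its difference did not pass in HET (-0.28 ± 0.16) or WT (-0.09 ± 0.17), where median-of-ratios scaling called it higher (0.56, adjusted p = 0.0158). The difference of responses passed for both KO minus WT (-1.22 ± 0.24, adjusted p = 2.53e-04) and KO minus HET (-1.02 ± 0.23, adjusted p = 0.00164). Gmnn (geminin), the protein that binds and blocks Cdt1, differed from WT by 0.25 ± 0.20, adjusted p = 0.413.

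The Mcm helicase subunits did not move as a unit between genotypes. Mcm3 read 19.2, 19.7, 16.4, 15.0 and 15.4 TPM in KO, 11.4, 12.1, 13.0, 13.7 and 11.4 TPM in HET, and 10.8, 9.84, 9.29, 8.99 and 7.54 TPM in WT with LPS, and all KO libraries exceeded all HET and WT libraries. KO exceeded WT by 0.82 ± 0.18, adjusted p = 3.30e-04, while the difference from HET did not pass (0.44 ± 0.18, adjusted p = 0.066). Mcm6 read 16.5, 17.3, 16.2, 12.9 and 14.0 TPM in KO, 22.4, 25.6, 20.4, 23.8 and 25.4 TPM in HET, and 19.6, 23.8, 23.5, 21.4 and 32.7 TPM in WT with LPS, and all KO libraries lay below all HET and WT libraries. KO was lower than WT, at -0.61 ± 0.17, adjusted p = 0.00598, and lower than HET, at -0.58 ± 0.17, adjusted p = 0.00966. The other 4 subunits were not called against either genotype, with log2 differences from WT of -0.03 (Mcm2), 0.07 (Mcm4), 0.18 (Mcm5) and -0.02 (Mcm7). The response of Mcm3 to LPS differed for KO minus WT (0.86 ± 0.26, adjusted p = 0.0149), a call lost without untreated WT replicate 1 or 2 (adjusted p up to 0.0529), under median-of-ratios scaling and under quantile normalization, and that of Mcm6 did not pass without a block (-0.64 ± 0.25, adjusted p = 0.0796) and passed with either block.

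**Figure D4:**
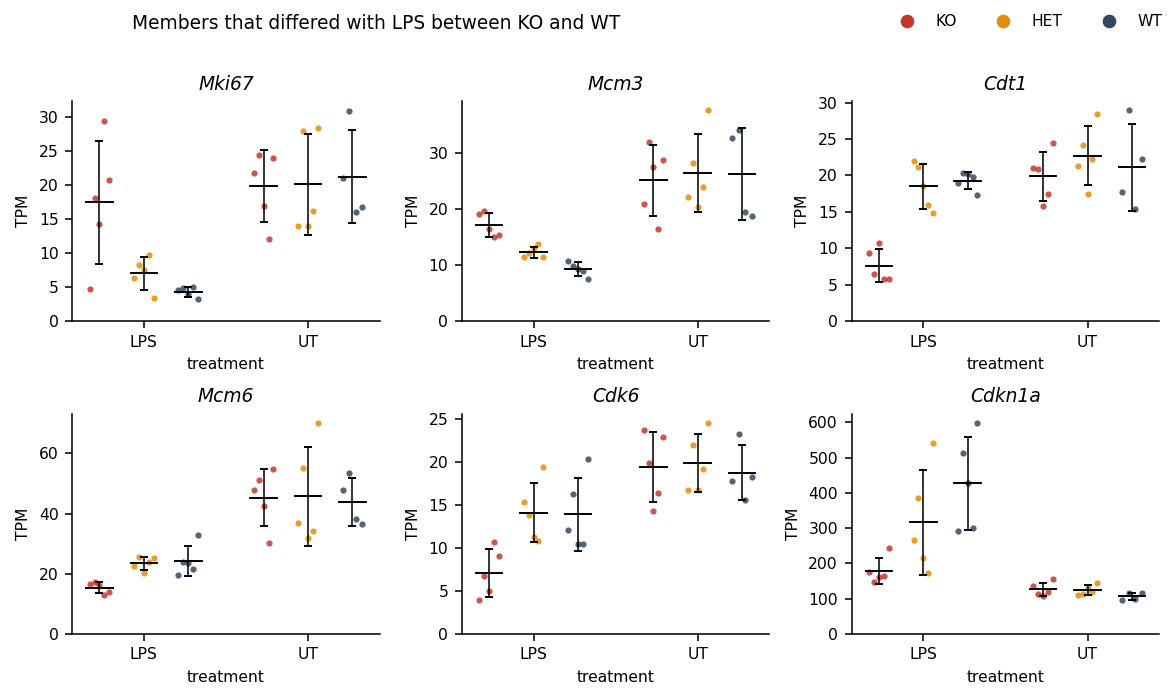
TPM in every library with LPS and untreated, by genotype, for 6 of the 7 members called in KO against WT under LPS (Cdkn1b is in the plot of the inhibitors), with points for libraries, lines for means and bars for SD. With LPS the KO libraries lie below the others for Cdt1 (5.72 to 10.7 TPM) and Mcm6 (12.9 to 17.3 TPM) and above them for Mcm3 (15.0 to 19.7 TPM).

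Cdk6, Cdkn1a and Cdkn1b were lower in KO than in WT. Cdk6 read 3.91, 6.78, 4.95, 10.7 and 9.12 TPM in KO, 15.3, 13.9, 11.3, 10.8 and 19.4 TPM in HET, and 12.1, 16.3, 10.5, 10.4 and 20.3 TPM in WT with LPS. Untreated, Cdk6 read 23.7, 19.9, 14.3, 16.4 and 22.9 TPM in KO, 16.8, 22.1, 16.8, 19.3 and 24.6 TPM in HET, and 17.9, 23.3, 15.6 and 18.3 TPM in WT. KO replicate 4, at 10.7 TPM, overlapped the lowest WT libraries, and KO was lower than WT, at -0.91 ± 0.19, adjusted p = 2.03e-04, and than HET, at -0.95 ± 0.19, adjusted p = 1.51e-04. The difference of responses passed as well, KO minus WT -0.95 ± 0.28, adjusted p = 0.0126, and KO minus HET -0.91 ± 0.27, adjusted p = 0.0164. With LPS against UT, Cdk6 fell in KO, at a log2 difference of -1.39 ± 0.19, while the called falls of -0.48 ± 0.19 in HET and -0.44 ± 0.20 in WT turned to 0.11 and 0.21 under median-of-ratios scaling. For Cdkn1a every KO library with LPS lay below every WT one, at -1.22 ± 0.20, adjusted p = 5.67e-06, and the HET libraries overlapped both. KO was lower than HET, at -0.72 ± 0.20, adjusted p = 0.00558, a call lost without LPS HET replicate 5 (adjusted p = 0.0501). The p21 response differed for KO minus WT (-1.46 ± 0.29, adjusted p = 3.12e-04) and did not pass for KO minus HET (-0.75 ± 0.28, adjusted p = 0.0722). Cdkn1b was lower in KO than WT, at -0.56 ± 0.15, adjusted p = 0.00352, with no shared values, and -0.29 ± 0.15 against HET did not pass. Cdkn2c exceeded HET by 0.48 ± 0.16, adjusted p = 0.0229, and Cenpa did by 0.72 ± 0.23, adjusted p = 0.0195. Without LPS HET replicate 5 or LPS KO replicate 2 both calls were lost, with Cdkn2c at an adjusted p of up to 0.167 and Cenpa of up to 0.111, and that of Cenpa was also lost without LPS HET replicate 3 or 4. With only the groups compared in the fit, the calls against HET of Mki67, Cenpa, Cdkn2c and Cdkn1a and both Cdk6 response calls were lost, and the call of Mcm6 against HET was lost under quantile normalization.

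No D cyclin passed the test between genotypes under LPS. KO against WT gave -0.57 ± 0.29, adjusted p = 0.157, for Ccnd1. The value for Ccnd2 was -0.41 ± 0.30, adjusted p = 0.367, and for Ccnd3 0.01 ± 0.21, adjusted p = 0.993. All 7 members called for KO against WT kept their direction and call when any 1 library was left out and under each scaling, filter and pseudocount tried. Markers of border macrophages and monocytes were higher in KO with LPS for 3 of the 5 tested and lower for 1, both against WT and against HET, and those of microglia were higher for 5 of 10. Of the 7 oligodendrocyte progenitor markers 0 were called in either comparison by limma. Of all genes, 14.4% were called higher and 13.2% lower in KO against WT, and 12.5% and 11.5% against HET. The part of these other differences in the members' values was not tested.

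**Figure D5:**
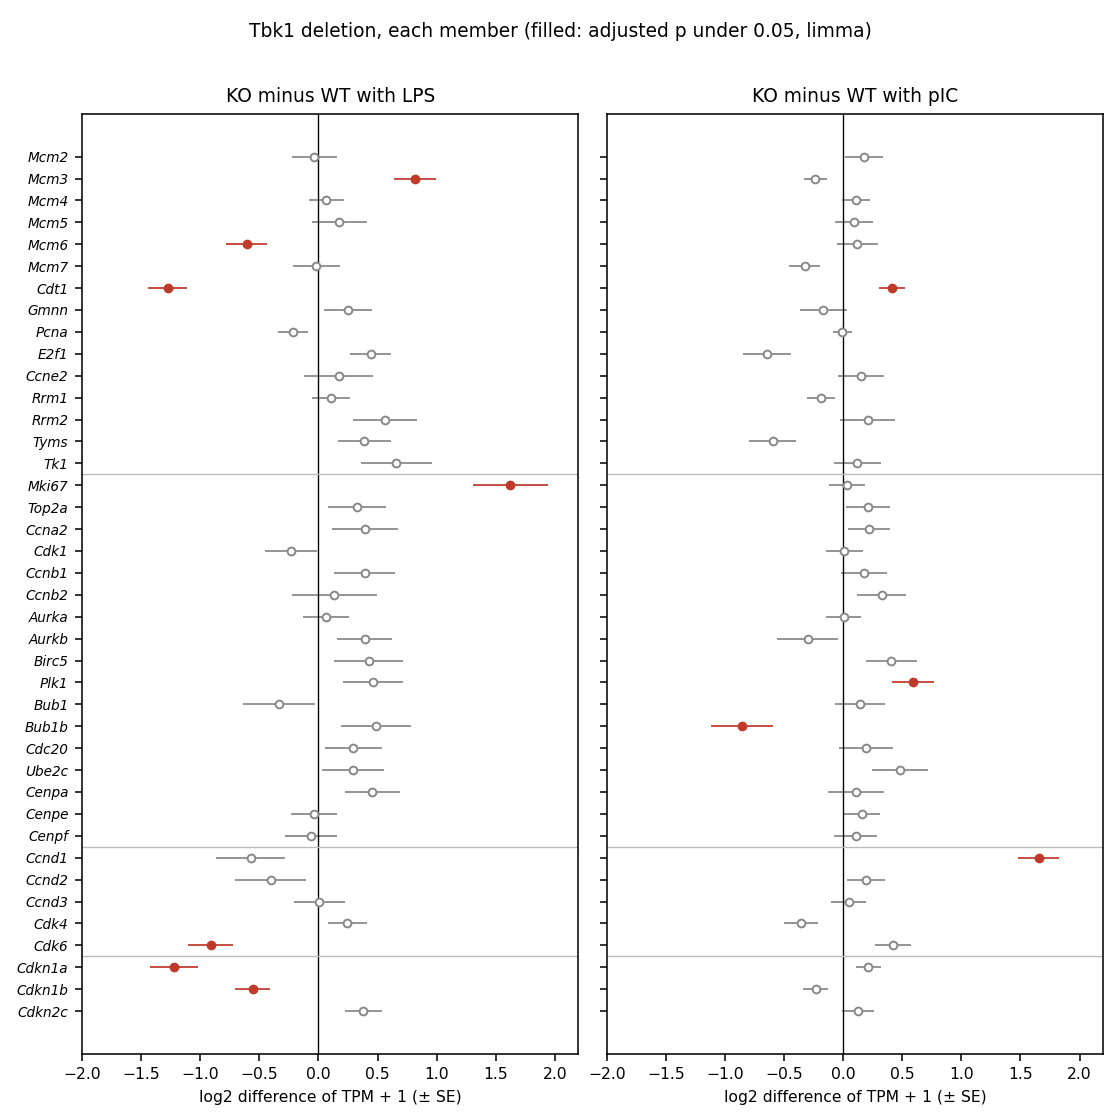
Log2 differences of log2(TPM + 1) with SE for the 40 members, KO minus WT, with LPS and with pIC. Filled points have adjusted p under 0.05 by limma, 7 with LPS and 4 with pIC.

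Responses to LPS were compared directly over all members. For KO minus WT 2 members (Mcm3, Mki67) were higher and 3 (Cdkn1a, Cdt1, Cdk6) lower, beside 16.4% of all genes called. With a block for each genotype and replicate number (the culture block), 3 were higher and 4 lower for KO minus WT, and with the replicate number as the block 3 and 5. The labels do not say that same-numbered libraries came from the same culture. Over all 15908 genes these blocks called 2098 higher and 1481 lower, and 1929 and 1406, against 1489 and 1118 without a block. The members added were Cdk4 (higher) and Mcm6 (lower) with both blocks and Cdkn1b (lower) with the replicate number. For KO minus HET 2 (Cdt1, Cdk6) were lower, beside 13.8%, and for HET minus WT 0 were called by limma (background 0%), with 1 at an unadjusted p under 0.05. Both shares of members called, 5 and 2 of 40, lie below the background.

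Some other genes of the cycle also differed between KO and WT under LPS, in both directions, where 14.4% of all genes were called higher and 13.2% lower. Among 38 other replication genes Dut (dUTPase) was higher by 0.60 and Rfc3 (a clamp loader subunit) lower, at -0.51. Among 38 other mitosis genes Cdca3 and Hmmr were higher, by 0.82 and 0.59, and Cks2 and Pttg1 lower. The replication and mitosis genes named here are, in each direction, smaller shares of their lists than that background. Cks2 averaged 11.6 ± 2.25 TPM in KO, 31.2 ± 11.2 TPM in HET and 31.7 ± 7.28 TPM in WT with LPS (-1.37 ± 0.21, adjusted p = 2.56e-06), and KO lay wholly below the others. Of the 12 RB, DREAM and inhibitor genes 5 were higher and 2 lower, the share lower being near that background, and the largest differences were in the INK4 inhibitors of Cdk4 and Cdk6. Cdkn2a, which encodes p16 and p19Arf, read 6.67, 12.5, 8.86, 11.0 and 14.7 TPM in KO, 1.92, 3.21, 2.38, 2.32 and 2.49 TPM in HET, and 1.55, 2.63, 1.97, 2.80 and 3.37 TPM in WT with LPS, and every KO library exceeded every other (1.74 ± 0.18, adjusted p = 6.54e-10). Cdkn2b, which encodes p15, averaged 14.4 ± 7.77 TPM in KO, 5.57 ± 1.82 TPM in HET and 4.22 ± 1.11 TPM in WT (1.42 ± 0.22, adjusted p = 2.88e-06). Thus, with LPS, the KO cultures had less of the p21 and p27 transcripts than WT and more of those of p15 and p16/p19Arf. Against HET the p27 difference did not pass, and the p21 call did not hold in every setting.

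Under LPS, KO was higher than WT for 3 of the 13 p53 targets and antiproliferative genes and lower for 7, beside 14.4% and 13.2% of all genes, with Sesn1 at 1.30, Ccng2 (cyclin G2) at -0.85, Gadd45b at -0.81 and Btg2 at -0.73. Of the 6 mitogens and receptors 3 were higher, namely Csf2rb, Csf1r and Csf2ra, the receptor chains for GM-CSF and related cytokines and the receptor for CSF-1, by 1.40, 0.87 and 0.72. The GM-CSF gene Csf2 was lower (-1.26), averaging 12.3 ± 7.92 TPM in KO, 72.1 ± 37.0 TPM in HET and 28.9 ± 10.9 TPM in WT, and it was listed at 0 in every untreated library. Against HET, where 12.5% of all genes were higher and 11.5% lower, the counts were 1 higher and 2 lower of 38 other replication genes, 2 higher and 2 lower of 38 other mitosis genes, 3 higher and 1 lower of 12 RB, DREAM and inhibitor genes, 3 higher and 4 lower of 13 p53 and antiproliferative genes, and 4 higher and 1 lower of 6 mitogens and receptors. The shares of the other replication and mitosis genes called lie below that background.

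IL4, which drives microglia and macrophages towards an alternative activation state, changed few members. Pcna rose in all 3 genotypes, joined by Cdt1 and Ccne2 in KO and by Mcm6 in WT. All 15 replication genes had positive log2 differences in each genotype, as did 16 of 17 mitosis genes in KO and all 17 in HET and WT, but 0 mitosis genes passed limma's test, with 0, 0 and 3 at an unadjusted p under 0.05 in KO, HET and WT. In all, 3 members rose in KO, 1 in HET and 2 in WT, beside 5.38%, 3.97% and 3.68% of all genes called higher (8.41%, 7.05% and 6.31% in either direction). By limma 0 fell, where 3.03%, 3.09% and 2.63% of all genes did. Median-of-ratios scaling moved the split over all genes to 682 higher and 347 lower in HET and 702 and 220 in WT, where the deposited TPM gave 631 and 491, and 585 and 419. The median over the members was 0.34, 0.28 and 0.44 in KO, HET and WT, where that over all genes was -0.06, -0.08 and -0.11.

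Pcna, the sliding clamp of DNA polymerases, read 354, 333, 345, 285 and 439.6 TPM in KO, 305, 361, 289.7, 296 and 347 TPM in HET, and 298, 439.8, 320.1, 283 and 378 TPM in WT with IL4. Untreated, Pcna read 205, 225, 191, 174 and 254 TPM in KO, 202, 228, 161, 194 and 297 TPM in HET, and 200.1, 248, 185 and 177 TPM in WT. IL4 libraries exceeded the untreated ones without overlap in KO and WT, and in HET untreated replicate 5 reached the lower IL4 values. Pcna rose by 0.74 ± 0.13, adjusted p = 4.10e-05 in KO, by 0.58 ± 0.13, adjusted p = 0.00131 in HET, and by 0.75 ± 0.13, adjusted p = 1.20e-04 in WT. Mcm6 read 63.7, 93.2, 68.6, 53.1 and 76.2 TPM with IL4 in WT, against 47.9, 53.4, 38.2 and 36.5 untreated. The WT groups overlapped only through IL4 replicate 4, at 53.1 TPM, and untreated replicate 2, at 53.4 TPM. Mcm6 rose in WT by 0.67 ± 0.18, adjusted p = 0.0168, lost without IL4 WT replicate 2 or untreated WT replicate 3 or 4 (adjusted p up to 0.0913).

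In KO, Ccne2, cyclin E2 of the G1 to S transition, read 10.2, 15.5, 11.4, 6.53 and 15.0 TPM with IL4, against 6.26, 5.01, 7.63, 2.60 and 7.22 untreated. Cdt1 read 31.6, 28.9, 27.6, 26.1 and 34.3 TPM with IL4 in KO, against 21.1, 20.8, 15.8, 17.4 and 24.4 untreated. The lowest IL4 library of Ccne2 lay within the untreated range, whereas all IL4 libraries of Cdt1 exceeded the untreated ones. Ccne2 rose by 0.93 ± 0.29, adjusted p = 0.0393, and Cdt1 by 0.56 ± 0.16, adjusted p = 0.0229. Leaving out 1 library ended the Ccne2 call for 7 of 10 libraries (adjusted p up to 0.179) and the Cdt1 call for 4, namely IL4 KO replicates 1 and 5 and untreated KO replicates 3 and 4 (adjusted p up to 0.0852). Without IL4 KO replicate 4, 6 members rose in KO.

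With the replicate number as a block, 7 members rose with IL4 in KO and 4 in WT. For KO and WT, treated and untreated libraries of the same number were taken as pairs, which the labels do not state. Over all 15908 genes tested, that block called 1183 higher in KO and 785 in WT, where the fit without it called 856 and 585. The members added were Mcm2, Mcm5, Mcm6 and Cdkn1a in KO and Mcm5 and Cdt1 in WT. A block for each genotype and replicate number gave 8 in each, beside 1238 of all genes in KO and 852 in WT.

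No D cyclin or inhibitor was called with IL4 in the unblocked fit, while Cdkn1a rose in KO with the replicate block. Ccnd1 read 121, 119, 99.7, 67.1 and 144 TPM in KO, 93.4, 113, 79.6, 91.5 and 127 TPM in HET, and 104, 136, 101, 71.6 and 141 TPM in WT, with the log2 difference from UT 0.42 ± 0.29, adjusted p = 0.49 in KO, and 0.54 ± 0.31, adjusted p = 0.344 in WT. Ccnd2 read 15.9, 21.5, 19.0, 43.8 and 14.0 TPM in KO, 17.8, 15.0, 32.1, 14.4 and 8.35 TPM in HET, and 19.1, 16.5, 18.0, 12.7 and 12.0 TPM in WT with IL4. KO replicate 4 and HET replicate 3 were again the highest for Ccnd2, as they were untreated. Ccnd3 read 80.2, 70.7, 104, 55.9 and 42.7 TPM in KO, 81.9, 74.5, 69.1, 62.9 and 48.6 TPM in HET, and 104, 65.1, 96.8, 95.8 and 53.1 TPM in WT with IL4, and all of these ranges overlapped the untreated ones. Cdkn1a read 195, 161, 158, 160.3 and 226 TPM in KO, 171, 146, 168, 171 and 208 TPM in HET, and 128, 170.4, 145, 156 and 204 TPM in WT with IL4. All IL4 libraries of Cdkn1a exceeded the untreated ones in HET, at 0.48 ± 0.20, adjusted p = 0.163, and in WT, at 0.58 ± 0.21, adjusted p = 0.106, without passing, and in KO they exceeded them at 0.51 ± 0.20, adjusted p = 0.125, where the replicate block gave an adjusted p of 0.0163. Cdkn1b averaged 47.3 ± 7.73 TPM in KO, 51.2 ± 8.76 TPM in HET and 50.6 ± 8.51 TPM in WT, and Cdkn2c averaged 29.3 ± 2.01 TPM in KO, 27.4 ± 3.43 TPM in HET and 29.3 ± 4.05 TPM in WT, with log2 differences from UT of -0.34, -0.25 and -0.32 for Cdkn1b and 0.07, -0.08 and 0.14 for Cdkn2c in KO, HET and WT.

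Genotype had no called effect on the members with IL4. For KO against WT, KO against HET and HET against WT 0 members were called by limma, with 0 at an unadjusted p under 0.05 in each, where the background was 0.044% (0.0251% higher and 0.0189% lower), 0.00629% and 0.0126%. The responses to IL4 did not differ either, with 0 members called and 0 at an unadjusted p under 0.05 for KO minus WT, KO minus HET and HET minus WT (background 0% in each). Outside the 40, the other replication genes that rose with IL4 were Gins2, Rfc5 and Fen1 in KO, Uhrf1 in HET and Fen1 in WT, by 0.80, 0.76, 0.47, 0.87 and 0.62. IL4 called 5.38%, 3.97% and 3.68% of all genes higher in KO, HET and WT, and 3.03%, 3.09% and 2.63% lower. The shares of the 38 other replication genes that rose lie near that background. Of 38 other mitosis genes Cks2 rose (0.71) and Pttg1 fell (-0.39) in KO, and 0 were called in HET or WT. Of the 7 oligodendrocyte progenitor markers 0 were called in any genotype, and their sum was 887 ± 325, 845 ± 186 and 1090.0 ± 406 TPM with IL4 in KO, HET and WT.

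The pIC libraries come in a table of their own, so levels with pIC and without stimulus are set side by side as a description, with no test. Most members were lower with pIC than untreated. Their pIC libraries lay wholly below the untreated ones for 26 of 40 members in KO, 30 in HET and 33 in WT, where 42.4%, 44.8% and 50.6% of the genes that passed the filter in both tables did so. Among the mitosis genes this held for 15 of 17 in KO, 14 in HET and 15 in WT. The mean of Cenpa was 0.16, 0.13 and 0.14 times the untreated mean in KO, HET and WT, and that of Ccna2 0.28, 0.16 and 0.23 times.

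On the other side, Cdkn1a lay wholly above the untreated libraries in all 3 genotypes and Cdk6 in KO, where 11.6%, 12.7% and 13% of genes did so in KO, HET and WT. Cdkn1a read 450.4, 307, 445, 376 and 372 TPM in KO, 387, 334, 364, 343 and 327 TPM in HET, and 377, 331, 382, 292 and 294 TPM in WT with pIC. These were 3.09, 2.85 and 3.15 times the untreated means in KO, HET and WT. Tyms, which rose with LPS in KO and HET, averaged 2.91 ± 1.08 TPM in KO, 4.10 ± 0.719 TPM in HET and 4.82 ± 1.19 TPM in WT with pIC and lay wholly below the untreated libraries in each genotype. Cdkn1b read 26.7, 32.1, 27.1, 32.8 and 21.9 TPM in KO, 30.5, 32.7, 32.7, 27.4 and 29.2 TPM in HET, and 39.1, 30.4, 31.5, 32.7 and 31.4 TPM in WT with pIC. Cdkn2c read 6.96, 11.7, 6.82, 9.74 and 7.50 TPM in KO, 8.03, 9.25, 6.67, 6.59 and 7.47 TPM in HET, and 7.92, 8.05, 7.61, 7.67 and 6.80 TPM in WT with pIC. Both inhibitors lay wholly below their untreated libraries in each genotype.

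Within the pIC table, KO cultures stood out by cyclin D1. Ccnd1 was higher in KO than in WT and in HET, by more than any other member. Plk1 and Cdt1 were also higher in KO than in both, Ccna2 was higher than in HET, and Bub1b was lower than in WT. In all, KO exceeded WT for 3 members and was below it for 1, beside 3.4% and 8.11% of all genes, and KO exceeded HET for 4 and was below it for 0, beside 1.65% and 3.6% (5.24% in either direction). Median-of-ratios scaling moved the split of calls over all genes to 724 higher and 470 lower for KO against WT, where the deposited TPM gave 473 and 1129, and to 289 and 217 for KO against HET, where it gave 229 and 501. For HET against WT 0 were called by limma (background 0%), and 3 had an unadjusted p under 0.05.

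Ccnd1 read 108, 172, 101, 219 and 181 TPM in KO, 47.3, 52.7, 54.0, 58.8 and 47.8 TPM in HET, and 52.7, 39.6, 44.1, 51.2 and 47.4 TPM in WT with pIC. Every KO library exceeded every other library of the table, and replicate 4 was the highest. KO exceeded WT by 1.65 ± 0.17, adjusted p = 5.10e-05, and HET by 1.50 ± 0.17, adjusted p = 1.83e-04. Both calls held when any 1 library was left out and under every other setting tried. The mean of Ccnd1 with pIC was 1.87 times the untreated mean in KO, 0.63 times in HET and 0.62 times in WT, and only the WT libraries lay wholly below their untreated ones. Ccnd2 read 28.4, 24.2, 30.0, 20.4 and 19.2 TPM in KO, 19.6, 20.6, 18.1, 17.5 and 16.9 TPM in HET, and 29.7, 20.1, 25.0, 18.0 and 15.0 TPM in WT with pIC, and Ccnd3 averaged 59.5 ± 9.40 TPM in KO, 51.8 ± 7.56 TPM in HET and 58.0 ± 11.0 TPM in WT. Neither was called between genotypes: KO against WT gave 0.19 ± 0.16, adjusted p = 0.477, for Ccnd2 and 0.05 ± 0.14, adjusted p = 0.879, for Ccnd3.

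The other called members had smaller differences. Plk1, the Polo-like kinase of mitosis, read 4.27, 5.13, 3.85, 2.48 and 3.37 TPM in KO, 1.43, 3.06, 1.54, 1.44 and 2.50 TPM in HET, and 1.90, 2.13, 2.59, 1.88 and 2.28 TPM in WT with pIC, and KO replicate 4 overlapped the other genotypes. KO exceeded WT by 0.59 ± 0.18, adjusted p = 0.0421, and HET by 0.70 ± 0.18, adjusted p = 0.033. Cdt1 read 22.4, 22.1, 21.5, 22.7 and 22.3 TPM in KO, 17.3, 17.1, 14.2, 18.4 and 13.7 TPM in HET, and 16.0, 19.7, 12.4, 17.4 and 17.8 TPM in WT with pIC, and all KO libraries exceeded the others. KO exceeded WT by 0.41 ± 0.11, adjusted p = 0.0253, and HET by 0.44 ± 0.11, adjusted p = 0.0296, the opposite direction to LPS. Ccna2 read 4.22, 6.47, 4.61, 3.97 and 5.54 TPM in KO, 3.00, 3.35, 1.38, 2.70 and 3.66 TPM in HET, and 4.03, 4.03, 3.47, 3.59 and 5.36 TPM in WT, and KO exceeded HET without overlap by 0.66 ± 0.18, adjusted p = 0.0424, while KO against WT gave 0.22 ± 0.18, adjusted p = 0.458. Bub1b, a kinase of the spindle checkpoint, read 3.09, 3.71, 2.70, 1.64 and 2.24 TPM in KO, 2.38, 4.76, 2.21, 2.70 and 6.29 TPM in HET, and 4.33, 8.90, 3.96, 4.20 and 7.67 TPM in WT, and KO was lower than WT, at -0.85 ± 0.26, adjusted p = 0.0443, with no overlap. The call of Bub1b, the one member lower in KO than WT, was lost under median-of-ratios scaling, under quantile normalization, without the filter and without the libraries numbered 5. These calls were near the threshold: leaving out 1 library of the 10 compared ended the call of Plk1 for 9 against WT and 6 against HET, of Bub1b for 8, of Ccna2 for 8, and of Cdt1 for 2 against WT (WT replicates 1 and 3) and 6 against HET, with adjusted p up to 0.106. Without KO replicate 2, 4 members were lower than in WT.

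With pIC, 3.4% of all genes were called higher in KO than in WT and 8.11% lower. Among the 35 other replication genes tested, KO was called higher than WT for 1 and lower for 3, shares near that background. Their largest difference was in Ccne1, cyclin E1, which acts with Cdk2 after the D cyclins. It read 17.1, 6.09, 15.6, 2.81 and 11.7 TPM in KO, 45.6, 44.0, 29.0, 37.6 and 56.7 TPM in HET, and 60.0, 49.4, 55.3, 34.5 and 58.6 TPM in WT with pIC. Every KO library lay below every HET and WT library, and KO was lower than WT, at -2.36 ± 0.34, adjusted p = 5.48e-04, and than HET, at -2.08 ± 0.34, adjusted p = 0.00276. Untreated, Ccne1 averaged 5.30 ± 1.48 TPM in KO, 5.83 ± 1.11 TPM in HET and 5.74 ± 0.448 TPM in WT. KO cultures with pIC thus had more cyclin D1 and less cyclin E1 transcript than the others. Rfc4 and Prim2 were lower (-0.66 and -0.41) and E2f8 higher (0.47) in KO than in WT. Of 37 other mitosis genes tested Pttg1 was higher in KO, by 0.28 against WT, the opposite direction to LPS. Of the RB, DREAM and inhibitor genes Rbl1 was lower (-0.37), and of the p53 and antiproliferative genes Gadd45a, Sesn2 and Trp53 were lower (-0.67, -0.60 and -0.28). Of the 7 oligodendrocyte progenitor markers 0 were called between genotypes with pIC. Of 10 microglia markers 4 were higher in KO than in WT and 1 higher than in HET, beside 3.4% and 1.65% of all genes. Their part in the members' differences was not tested.

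Several members share sequence or position with other genes, and whether the authors' counting used strand is not given in the sources used. Cdt1 (with Gm20388), Rrm1 (with Gm45399), Mcm7 (with miRNA genes) and Top2a (with Gm23451) overlap genes on the same strand. Mki67, Plk1, Cdkn1a, Cdk6, Cdk4, Ccnd1, Ccnd2, Ccnd3, Ccna2, Ccne2, Cdc20, Cenpf, Tk1, Ube2c, Mcm7 and Top2a overlap genes on the opposite strand. Reads of these members can therefore not be assigned with certainty, and Pcna shares sequence with the pseudogene Pcna-ps2.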

How the data were processed

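TPM values per gene were deposited by the authors in one table for the 44 UT, LPS and IL4 libraries and another for the 15 pIC libraries. FastQC, Trimmomatic, DRAGEN and Picard, with no version or order, and mm10 are listed in the submitters' processing notes. TPM scales every library to the same total (999806 to 999936 here), so depth is unknown, no counting interval can be given, and a gain in abundant genes lowers all others. The libraries held 12428 to 14581 genes at 1 TPM or more.

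Values were transformed as log2(TPM + 1), so differences of low genes are understated. A gene entered a table's test when 4 or more of its libraries reached 1 TPM (15908 and 13919 genes). With R 4.3.3, limma 3.58.1 (lmFit, then eBayes with its trend option) was fitted with a mean per group, all groups of a table sharing the spread, and every adjusted p is its Benjamini-Hochberg value over all genes, called at 0.05. No test was made between tables. The fit was tested on simulated data in which genes and libraries varied independently, so that test does not cover deviations shared between libraries or genes. Differences are given ± SE, means ± SD over 5 libraries (4 for untreated WT).

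The members and lists were chosen with earlier results of these data known. Members given with every library's value were the largest called differences whose higher group averaged 5 TPM or more, and the D cyclins and CDK inhibitors throughout; of each pathway list up to 4 called genes were named, beside others picked after their values were seen. Promoters came from RefSeq (GRCm38.p6) by symbol, and genes with several starts counted if any start held the letters.

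Replicate numbers were taken as pairs where the deviations of same-numbered libraries from their group means correlated by more than 0.1 in every pair. This held for LPS and IL4 against UT in WT (4 of 4 pairs) and KO (5 of 5) and for HET against WT untreated (4 of 4). The labels do not say that same-numbered libraries came from the same culture, and libraries of unlike number were not correlated for comparison. Since the rule was also met between genotypes, it cannot show a shared culture. The culture block is a block for each genotype and replicate number. Alternatives were a pseudocount of 0.1, no filter, quantile normalization, median-of-ratios scaling, fitting only the groups compared, the replicate number or the culture as a block, leaving out each library, and, chosen after seeing the data, leaving out all libraries numbered 5.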

Additional observations from a re-analysis of the deposited data

Results flagged for a closer look

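Among the 19 members examined for single libraries far from their group, 5 of 228 groups held one, where chance gives about 1 in 20. Ccnd2 was at 44.9 TPM in untreated KO replicate 4 (next 18.7 TPM) and at 43.8 TPM in IL4 KO replicate 4 (next 21.5 TPM). Ccnd1 was at 34.1 TPM in LPS WT replicate 1 (next 18.9 TPM). Cenpa was at 7.73 TPM (next 4.00 TPM) and Cdkn1b at 39.1 TPM (next 32.7 TPM), both in pIC WT replicate 1.

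The response to LPS differed between genotypes by limma's test of the difference itself for 5 members. For KO minus WT the log2 difference of responses was 1.71 ± 0.47 for Mki67, 0.86 ± 0.26 for Mcm3, -0.95 ± 0.28 for Cdk6, -1.22 ± 0.24 for Cdt1 and -1.46 ± 0.29 for Cdkn1a. For KO minus HET it was -0.91 ± 0.27 for Cdk6 and -1.02 ± 0.23 for Cdt1.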

How the results depend on the processing

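Depth is unknown, so no limit from counting can be set. Of the 146 calls of a member in a comparison, 129 kept direction and call under median-of-ratios scaling and 129 under quantile normalization, 143 with a pseudocount of 0.1, 138 without the filter, 133 with only the groups compared, 146 with the replicate block and 138 without the libraries numbered 5. Reversals were confined to LPS against UT. Under median-of-ratios scaling these were Cdk6 at 0.11 in HET and 0.21 in WT, Mcm3 at 0.0055 and Ccnd3 at 0.42 in KO, and Ccnd3 at 0.12, Cdt1 at 0.56 and Cdkn1b at 0.12 in WT. Under quantile normalization Cdk6 was at 0.030 in HET and 0.13 in WT. With LPS in WT the median over all genes was -0.04 and -0.13 under these methods, against -0.59 as deposited.

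Counts of members moved by over 1.5 times as follows, and the cause was not tested. Members higher with LPS in WT numbered 4 under median-of-ratios scaling and 3 under quantile normalization. With IL4, members higher in HET numbered 2 without the libraries numbered 5 and with only the groups compared, and 1 was lower in KO under quantile normalization. Higher in KO than HET were 6 with LPS and 1 with pIC without the libraries numbered 5, 1 with LPS and 2 with pIC with only the groups compared, and 1 with pIC without the filter. Lower in KO than WT with pIC were 0 under median-of-ratios scaling, under quantile normalization and without the filter, and 2 with a pseudocount of 0.1. Of LPS responses, KO minus WT had 1 higher under median-of-ratios scaling, and KO minus HET 1 lower with only the groups compared.

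With the replicate block, members higher with IL4 numbered 7 in KO and 4 in WT, and with the culture block 8 and 8. Over all genes 1183 and 785 were higher with the replicate block and 1238 and 852 with the culture block, against 856 and 585 without. For LPS responses of KO minus WT, whose numbers were also taken as pairs, the replicate block gave 3 higher and 5 lower and the culture block 3 and 4. The numbers did not meet the rule for pairs in the following. With IL4 in HET (over 0.1 in 4 of 5 pairs) 3 were higher with the replicate block and 4 with the culture block. The replicate block gave 10 higher in KO than HET and 6 higher in KO than WT with LPS, and with pIC 1 lower in KO than HET and 3 lower in KO than WT. For LPS responses of KO minus HET it gave 1 higher and 4 lower, as did the culture block. The replicate block ended no call, and in each of these comparisons it called more of all genes than the fit without a block.

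Leaving out 1 library gave 1 to 6 members higher with IL4 in KO, 1 to 2 in HET and 1 to 3 in WT. With LPS it gave 1 to 3 higher and 35 lower in KO, 2 higher and 33 to 35 lower in HET, and 1 higher and 33 to 36 lower in WT. For KO against HET it gave 0 to 6 higher and 3 to 4 lower with LPS and 1 to 3 higher and 0 lower with pIC, and for KO against WT 2 to 6 higher and 5 lower with LPS and 1 to 3 higher and 0 to 4 lower with pIC. LPS responses gave 0 to 2 higher and 2 to 3 lower for KO minus HET (2 higher without LPS HET replicate 1), and 1 to 3 higher and 3 to 4 lower for KO minus WT.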

Other observations

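Some genes outside the 40, of the mitogens and receptors and of the p53 targets and antiproliferative genes, rose with IL4. Only genes that rose are named here. Of all genes, 5.38%, 3.97% and 3.68% were called higher with IL4 in KO, HET and WT. Csf2rb, the shared receptor chain for GM-CSF, IL-3 and IL-5, rose in all 3 genotypes, by 0.95 ± 0.20 in KO, 0.88 ± 0.20 in HET and 0.72 ± 0.21 in WT on the log2 scale. In KO, Csf1, the CSF-1 growth factor, rose by 0.88 ± 0.25, Csf2ra by 0.57 ± 0.15 and the stress-induced gene Gadd45b by 0.85 ± 0.22 (largest adjusted p = 0.0194 in KO, by limma).

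In KO and WT the replicate numbers lowest or highest untreated were so with IL4 too, while in HET other numbers shared those places with IL4. For IL4 in HET the numbers did not meet the rule for pairs. Of the 32 replication and mitosis members, replicate 4 was the lowest of its group for 27 untreated and 28 with IL4 in KO. In WT it was lowest for 22 untreated and 23 with IL4, and replicate 2 was highest for 21 and 26. In HET replicate 5 was highest for 29 untreated and 14 with IL4, where replicate 2 was highest for 18, and replicate 3 was lowest for 23 untreated and 15 with IL4, where replicate 1 was lowest for 12. With LPS, KO replicate 2 was highest for 19 and replicate 5 lowest for 21.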
